A study of Mus musculus with 12 samples.

Results

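The genes described here are 10 components of the smooth muscle contractile filament, *Myh11*, *Acta2*, *Actg2*, *Tpm1*, *Tpm2*, *Cald1*, *Cnn1*, *Lmod1*, *Smtn* and *Tagln*. The rule names them for their place in the filament and uses no measured value, though earlier results of these data were known when they were chosen. All 10 were found among the 55092 features of the RNA-Seq table. All 10 also passed the filter on low values, which kept 14676 features for testing. In abdominal aortas of mice with deletion of CCN2 in smooth muscle cells (SMCs) and 7 days of angiotensin II (Ang II), all 10 were lower than in floxed mice given Ang II, by 2.48-fold for *Cald1* to 18.1-fold for *Myh11*. In saline-infused mice the same genotype gave no change that passed a test in any of the 10.

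In SMCs, myosin II filaments pull on thin filaments of actin and tropomyosin, and contraction starts when calcium activates the kinase that phosphorylates the myosin light chain. Caldesmon and calponin bind the thin filament and restrain the actin-activated ATPase of myosin, and leiomodin nucleates actin filaments. The genes of these proteins are the usual markers of the differentiated, contractile SMC of the arterial media, and serum response factor (SRF) with its coactivator myocardin drives many of them through CArG boxes.

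Abdominal aortas of 12 male mice were sequenced, 3 in each of 4 groups, with 1 library per mouse. All mice carried floxed Ccn2 alleles (CCN2fl/fl) and received 5 doses of tamoxifen at 8 weeks of age, followed by 2 weeks of washout. CCN2SMCΔ mice also carried Myh11-Cre-ERT2, a tamoxifen-inducible Cre under the promoter of *Myh11*, and the CCN2fl/fl mice carried no Cre, so the presence of Cre and the deletion cannot be told apart. Mini-osmotic pumps delivered saline or Ang II at 500 ng/kg/min until day 7, which gave CCN2fl/fl mice on saline (CFS), CCN2SMCΔ mice on saline (CSS), CCN2fl/fl mice on Ang II (CFA) and CCN2SMCΔ mice on Ang II (CSA). Each mouse is named by its group and number, as in CSA03.

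Values are FPKM, fragments of a gene per unit of its length and of library size. Depth recovered from the FPKM steps ran from 14558580 fragments in CSA03 to 23107807 in CFA71. CSA03 also lay 1.1994 or more from its group mates in root mean square log2 distance, where CSA01 and CSA02 lay 0.505 apart. CFS68 and CSS55 held skeletal muscle marker sums of 188 and 290 FPKM, against 3.17 to 6.04 in the other mice. *Ccn2*, the targeted gene, measured 710, 1108 and 480 FPKM in CFS, 436, 640 and 587 in CSS, 1013, 1105 and 564 in CFA, and 255, 331 and 399 in CSA. Transcript of *Ccn2* was present in every CCN2SMCΔ aorta, the saline groups overlapped, and CSA lay below CFA (log2 fold change -1.41, limma adjusted p = 0.00622). The value covers all exons and all cells of the wall, so it is no full check of a deletion in SMCs. The tissue label fits its markers, as *Acta2* alone measured at least 3881 FPKM in every aorta outside CSA.

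RefSeq promoter windows of GRCm38.p6, 250 bases before to 50 bases after a transcription start, were available for 7 of the 10 genes, with 2 windows for *Cald1*. *Myh11*, *Actg2* and *Tagln* were not matched. The windows were searched for the CArG box (CC, 6 bases of A or T, GG) and for the MCAT motif CATTCC, which TEAD factors bind, on both strands. An exact CArG box was in 0 of the 8 windows and in 1.63% of all 32851 windows. With 1 C or G allowed among the central 6 bases, *Acta2* was the only match among the 8, with CArG boxes starting 84 and 34 bases before its start site, and 9.98% of all windows held such a match. MCAT was in 5 of the 8 windows, those of *Acta2*, *Lmod1*, *Smtn*, *Tpm1* and the first of *Cald1*, and in 14.7% of all windows. Of 18 windows found for 16 of 19 related genes, 2 held an exact CArG box, those of *Actg1* and *Cnn2*. With 1 C or G allowed, 4 of the 18 matched, those of *Actg1* and *Cnn2* and both of *Tpm3*. MCAT was in 4, those of *Myh10*, *Tmod1*, *Smtnl2* and *Tagln2*. A match describes letters in a window and says nothing of binding.

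The 250 bases before the start are printed for *Acta2*, which holds both motifs, and for *Lmod1* and *Cald1*, the largest and smallest falls among the genes with a match. They are the minus strand of chr19:34255374-34255623 for *Acta2*, and the plus strand of chr1:135324563-135324812 for *Lmod1* and of chr6:34598254-34598503 for *Cald1*. Capitals mark MCAT, here on the opposite strand as GGAATG, and in *Acta2* also the CArG boxes.
Acta2: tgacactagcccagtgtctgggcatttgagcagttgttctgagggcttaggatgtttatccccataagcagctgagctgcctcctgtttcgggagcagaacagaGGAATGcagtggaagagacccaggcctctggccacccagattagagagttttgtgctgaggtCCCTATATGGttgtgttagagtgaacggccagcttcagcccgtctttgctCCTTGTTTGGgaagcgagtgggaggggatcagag
Lmod1: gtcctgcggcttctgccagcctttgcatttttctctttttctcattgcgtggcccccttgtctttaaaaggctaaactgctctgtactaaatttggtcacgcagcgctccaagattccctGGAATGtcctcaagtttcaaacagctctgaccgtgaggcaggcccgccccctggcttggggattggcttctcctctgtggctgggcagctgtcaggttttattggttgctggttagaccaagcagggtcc
Cald1: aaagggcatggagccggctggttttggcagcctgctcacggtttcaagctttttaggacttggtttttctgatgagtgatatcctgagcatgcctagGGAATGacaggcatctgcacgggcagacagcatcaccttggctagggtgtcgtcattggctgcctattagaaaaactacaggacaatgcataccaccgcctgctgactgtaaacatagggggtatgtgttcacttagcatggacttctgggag

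*Myh11*, the motor heavy chain of smooth muscle myosin (chromosome 16, 14194535 to 14291372, minus strand, GRCm38), had the largest change. It measured 965, 1187 and 941 FPKM in CFS and 968, 836 and 982 in CSS. It measured 733, 695 and 725 in CFA, and 35.4, 37.7 and 46.5 in CSA. The 3 CSA aortas lay far below the other 9, the CFA aortas lay below both saline groups, and the saline groups overlapped. Between CSA and CFA its log2 fold change was -4.17 (standard error, SE, 0.14, limma adjusted p = 8.05e-08 by the Benjamini-Hochberg method), the 57th lowest of the 14676 genes tested.

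*Acta2*, the vascular smooth muscle α-actin (chromosome 19, 34241090 to 34255590, minus strand), was the highest of the 10 in every aorta. It measured 6634, 7650 and 6134 FPKM in CFS, 6438, 5778 and 6435 in CSS, 5777, 6604 and 3881 in CFA, and 732, 774 and 683 in CSA. The other 3 groups overlapped each other and CSA lay below all of them. Between CSA and CFA its log2 fold change was -2.86 (SE 0.19, limma adjusted p = 1.54e-06). *Actg2*, the γ-actin typical of visceral smooth muscle (chromosome 6, 83512905 to 83536265, minus strand), measured 113, 138 and 66.7 in CFA and 29.1, 28.5 and 24.9 in CSA, with 97.0 to 174 in the saline groups. Its fall was the smaller of both actins, with a log2 fold change of -1.88 (SE 0.26, limma adjusted p = 0.000179).

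Tropomyosins lie along the actin filament and control access of myosin to it. *Tpm1* (chromosome 9, 67022590 to 67049406, minus strand) measured 288, 285 and 223 FPKM in CFA and 58.9, 65.7 and 64.4 in CSA. *Tpm2* (chromosome 4, 43514711 to 43523765, minus strand) measured 485, 516 and 391 in CFA and 66.5, 80.6 and 58.6 in CSA. Neither gene overlapped between those groups, and the log2 fold changes were -2.06 for *Tpm1* and -2.76 for *Tpm2* (SEs 0.13 and 0.16, limma adjusted p = 1.35e-06 and 7.90e-07). *Cald1*, caldesmon (chromosome 6, 34598500 to 34775473, plus strand), measured 169, 171 and 140 in CFA and 57.2, 55.5 and 83.4 in CSA. All 3 CSA aortas were again the lowest, with CSA03 the highest of them. *Cald1* fell by 1.31 on the log2 scale (SE 0.17, limma adjusted p = 0.000136), short of the fold limit of 1.5. A value per gene does not separate nonmuscle splice forms, which *Tpm1* and *Cald1* have among others, from the smooth muscle forms.

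*Cnn1*, calponin 1 (chromosome 9, 22099216 to 22109630, plus strand), measured 505, 697 and 558 FPKM in CFS, 565, 465 and 519 in CSS, 485, 529 and 336 in CFA, and 34.1, 44.1 and 21.2 in CSA. *Lmod1*, leiomodin 1 (chromosome 1, 135324807 to 135368065, plus strand), measured 153, 123 and 167 in CFA and 14.0, 17.6 and 8.28 in CSA. *Smtn*, the actin-binding smoothelin (chromosome 11, 3517523 to 3540612, minus strand), measured 293, 242 and 254 in CFA and 50.3, 50.6 and 23.2 in CSA. In all 3 genes CSA lay apart from CFA, and CSA03 was the lowest aorta. After *Myh11*, *Cnn1* and *Lmod1* had the largest changes of the 10, with log2 fold changes of -3.80 and -3.52 (SEs 0.26 and 0.26, limma adjusted p = 2.26e-06 and 3.46e-06). *Smtn* had -2.75 (SE 0.28, limma adjusted p = 2.54e-05), and 16.3% of its exonic bases are shared with *Gm11946* on the opposite strand.

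*Tagln*, the calponin-related actin-binding protein SM22α (chromosome 9, 45929619 to 45936058, minus strand), had the lowest listed FPKM of the 10 in every group. The counting limit given below leaves that rank unsure. It measured 20.8, 20.3 and 14.6 FPKM in CFA and 3.72, 6.59 and 2.04 in CSA. Its log2 fold change was -2.28 (SE 0.32, limma adjusted p = 0.000232). The level rests on 62 to 1080 fragments a library, against 501 to 314259 for the other 9 genes. In the GENCODE M21 annotation 67.9% of the exonic bases of *Tagln*, and 100% of its coding bases, are shared with opposite-strand genes, chiefly the antisense *Gm48529*. Fragments there could have been dropped or divided in counting, so its level cannot be set against the other genes. *Gm48529* was listed at 3.77 to 7.13 FPKM in CFA and 1.06 to 1.62 in CSA.

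**Figure D1:**
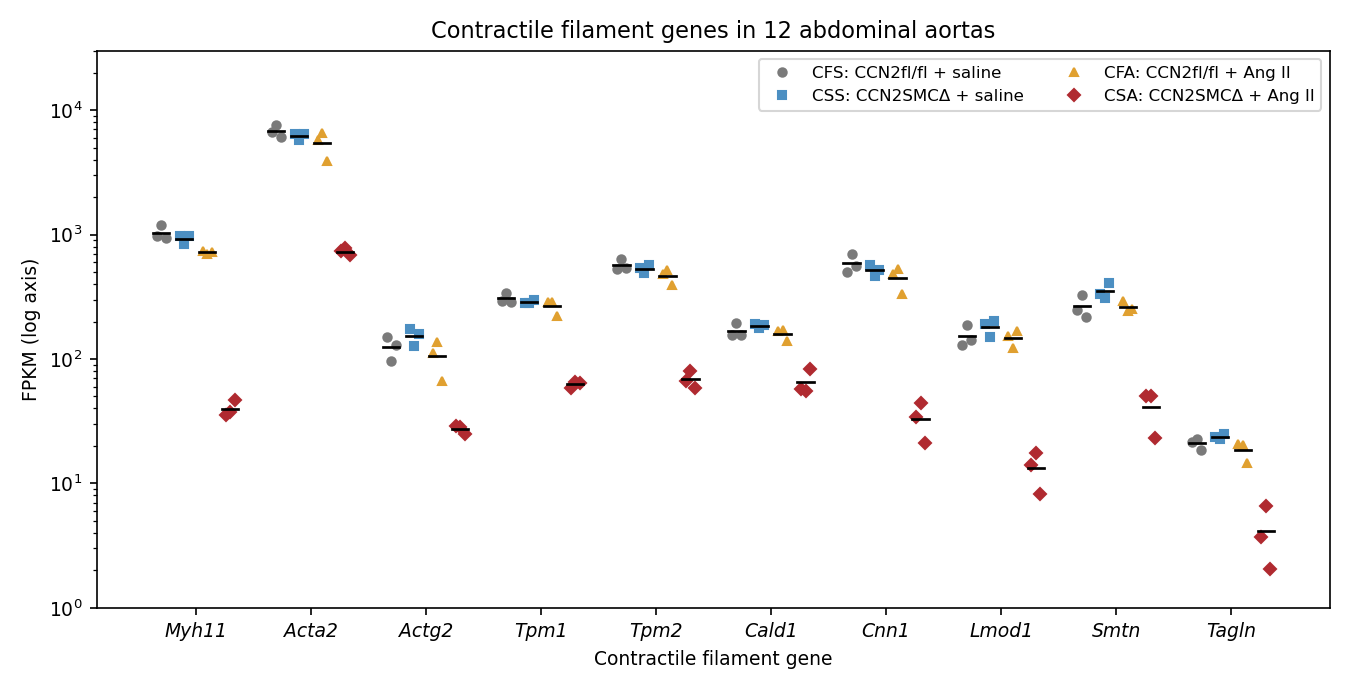
FPKM on a log axis for each of the 10 contractile filament genes in 12 abdominal aortas, with 1 point per mouse and a bar at the mean of the 3 mice of a group. The CSA points of every gene lie below the CFS, CSS and CFA points, from 35.4 to 46.5 FPKM for *Myh11* and from 683 to 774 for *Acta2*.

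Calls needed an adjusted p below 0.05 together with a log2 fold change beyond 1.5 in either direction. In CSA against CFA, 9 of the 10 genes were called lower, where 8.27% of all tested genes were. At an adjusted p under 0.05 alone, 10 of 10 were lower, against 21.2% of all tested genes. The groups did not overlap for 10 of 10, with CSA below CFA, against 25.1% of all tested genes. Their median log2 fold change was -2.75, and that of all tested genes was -0.04. The 10 genes together took 2.72% ± 0.437 of all FPKM in CFA and 0.393% ± 0.0215 in CSA (SD, n = 3). In bulk tissue, fewer SMCs and less transcript per SMC cannot be told apart. The values of CSA03 did not decide these calls, as 9 were called lower without it, with a median log2 fold change of -2.51.

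In saline-infused mice the question was whether the CCN2SMCΔ genotype alone moved the filament genes. *Ccn2* itself overlapped between CSS and CFS (log2 difference -0.40, limma), so how far the deletion went is not known from it. Called genes among the 10 numbered 0 in each direction (limma), as did genes at an unadjusted p under 0.05. Among all tested genes, 0.00681% were called lower and 0.00681% higher, and 3.22% were lower and 3.08% higher at the unadjusted p. CSS and CFS overlapped for all 10 genes, while 9.31% of tested genes did not overlap with CSS lower and 11.1% with CSS higher. Log2 fold changes ran from -0.18 for *Cnn1* to 0.41 for *Smtn*, with a median of 0.03. For *Myh11* the log2 difference was -0.15 (95% interval -0.46 to 0.17), and for *Acta2* it was -0.13 (-0.54 to 0.29). For *Tagln*, the least precise of the 10, the interval was -0.53 to 0.90. These intervals leave out a fall of the size seen under Ang II in each of the 10 genes and do not show equal levels.

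In CCN2fl/fl mice, Ang II was compared with saline, and 0 of the 10 genes were called lower (limma), where 0.00681% of tested genes were. At an unadjusted p under 0.05, 1 of the 10 was lower, *Myh11*, against 3.81% of tested genes. *Myh11* measured 1031 ± 135 FPKM in CFS and 718 ± 19.8 in CFA (SD, n = 3). Its log2 difference of -0.51 did not pass adjustment in the main fit (SE 0.14, limma adjusted p = 0.22). Over the alternatives its limma adjusted p ran from 0.0365 to 0.566. CFA lay below CFS without overlap for 2 of the 10, *Myh11* and *Tpm2*, against 10.8% of tested genes. The *Tpm2* log2 difference was -0.30 (95% interval -0.65 to 0.05). The other 8 genes overlapped, with log2 differences from -0.40 for *Cnn1* to 0.01 for *Smtn*, and CFA74 was the lowest CFA aorta for 7 of the 10.

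In CCN2SMCΔ mice, Ang II against saline gave 10 of 10 called lower, against 9.36% of tested genes. *Myh11* was again the most reduced, 23.3-fold, with a log2 fold change of -4.54 (SE 0.14, limma adjusted p = 2.03e-08). *Cnn1* fell 16.2-fold and *Lmod1* 14.1-fold, and *Cald1*, at a log2 fold change of -1.53, passed the fold limit narrowly. The comparison shares its CSA aortas with that of CSA against CFA.

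The genotype effect under Ang II minus that under saline, a test of interaction, was called lower in 9 of the 10 genes, against 7.31% of tested genes. At an adjusted p under 0.05 alone it was lower in 10 of 10, against 13.7%. The interaction was -4.03 for *Myh11* on the log2 scale (SE 0.20, limma adjusted p = 3.85e-06), -3.78 for *Lmod1*, -3.62 for *Cnn1* and -2.73 for *Acta2*. *Cald1* had the smallest, -1.45 (SE 0.24, limma adjusted p = 0.0015).

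**Figure D2:**
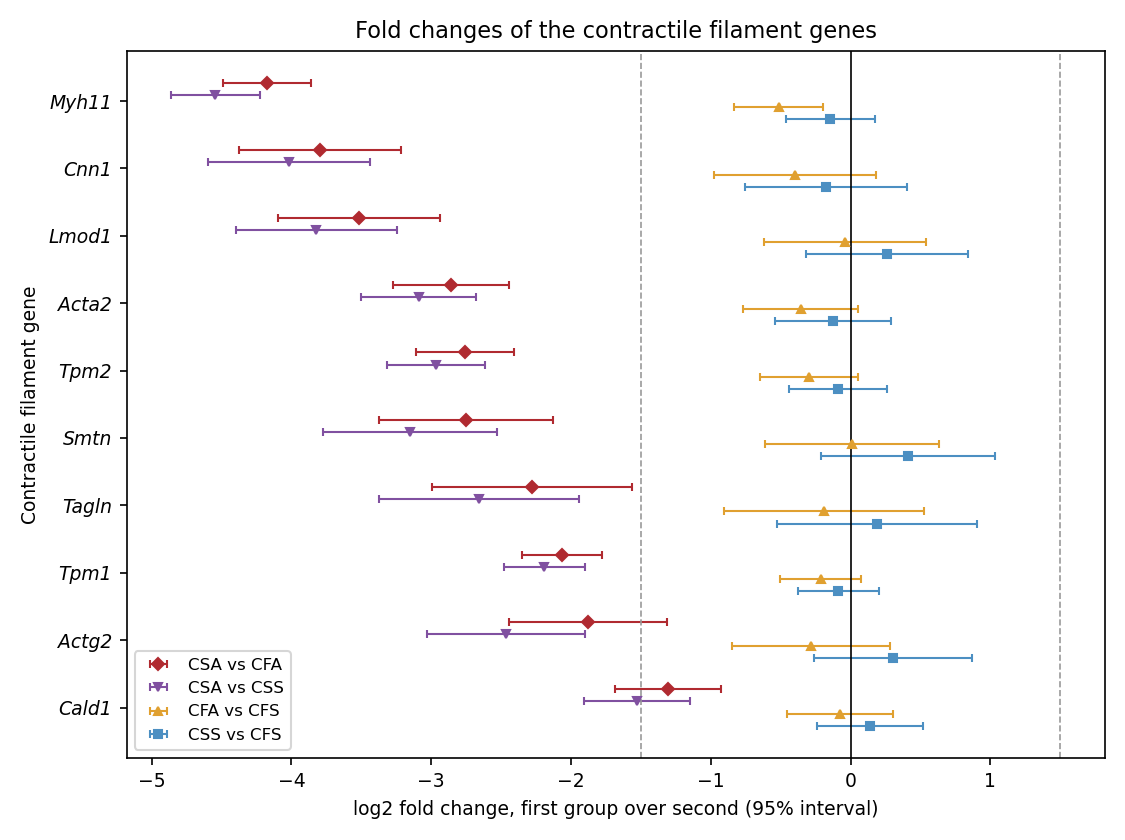
Log2 fold change of each gene in 4 comparisons, first group over second, with 95% intervals from limma and dashed lines at the fold limits of -1.5 and 1.5. Both comparisons of CSA lie left of 0 for every gene, from -4.17 for *Myh11* to -1.31 for *Cald1* against CFA, while intervals for CSS against CFS span 0 in all 10 and those for CFA against CFS in every gene but *Myh11*.

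The fitted falls of the 10 genes were unequal, and their order by level differed between groups. FPKM divides by all exonic bases of a gene, which is longer than any transcript for genes with many forms. In CFS the order by mean FPKM was *Acta2*, *Myh11*, *Cnn1*, *Tpm2*, *Tpm1*, *Smtn*, *Cald1*, *Lmod1*, *Actg2* and *Tagln*. *Cnn1* overlapped *Tpm2*, *Tpm1* overlapped *Smtn*, *Cald1* overlapped *Lmod1*, and *Lmod1* overlapped *Actg2*, while the other neighbours in the order were apart. The last place of *Tagln* is that of the listed values only, as its counting limit keeps its level from being set against the others. In CSA *Myh11* stood sixth, at 39.9 ± 5.86 FPKM (SD, n = 3), below *Acta2* at 730.0 ± 45.5, *Tpm2* at 68.6 ± 11.1, *Cald1* at 65.4 ± 15.6, *Tpm1* at 63.0 ± 3.60 and *Smtn* at 41.4 ± 15.7. *Tpm2*, *Cald1* and *Tpm1* overlapped in turn, as did *Smtn*, *Myh11*, *Cnn1* and *Actg2*. Scaled to the longest transcript in place of all exonic bases, *Cald1* was at 426 in CFS and 165 in CSA, and *Myh11* at 1196 and 46.3. The order changed with that scaling. In CFS *Tpm1*, at 688, stood above *Cnn1*, at 674, and *Cald1* stood above *Smtn*, at 342. In CSA *Cald1* and *Tpm1*, at 165 and 141, stood above *Tpm2*, at 91.7.

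Ratios within a library do not depend on the scaling between libraries. *Myh11* had the largest fall of the 10, so the mean ratio of each other gene to it had to be higher in CSA, and the ratios describe by how much. The log2 ratio to *Myh11* was higher in CSA than in CFA without overlap for 7 of the other 9 genes. The gap was widest for *Cald1*, from -2.12, -2.02 and -2.37 in CFA to 0.69, 0.56 and 0.84 in CSA. *Cald1*, *Tpm1* and *Tpm2* were thus below *Myh11* in every CFA aorta and above it in every CSA aorta. For *Acta2* the log2 ratio was 2.98, 3.25 and 2.42 in CFA and 4.36, 4.36 and 3.87 in CSA. *Cnn1* and *Lmod1* overlapped between the groups and kept nearest to *Myh11*, with differences of 0.38 and 0.66. That overlap rests on CSA03, as both other CSA aortas lay above every CFA aorta, and the differences without it were 0.78 and 1.08.

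**Figure D3:**
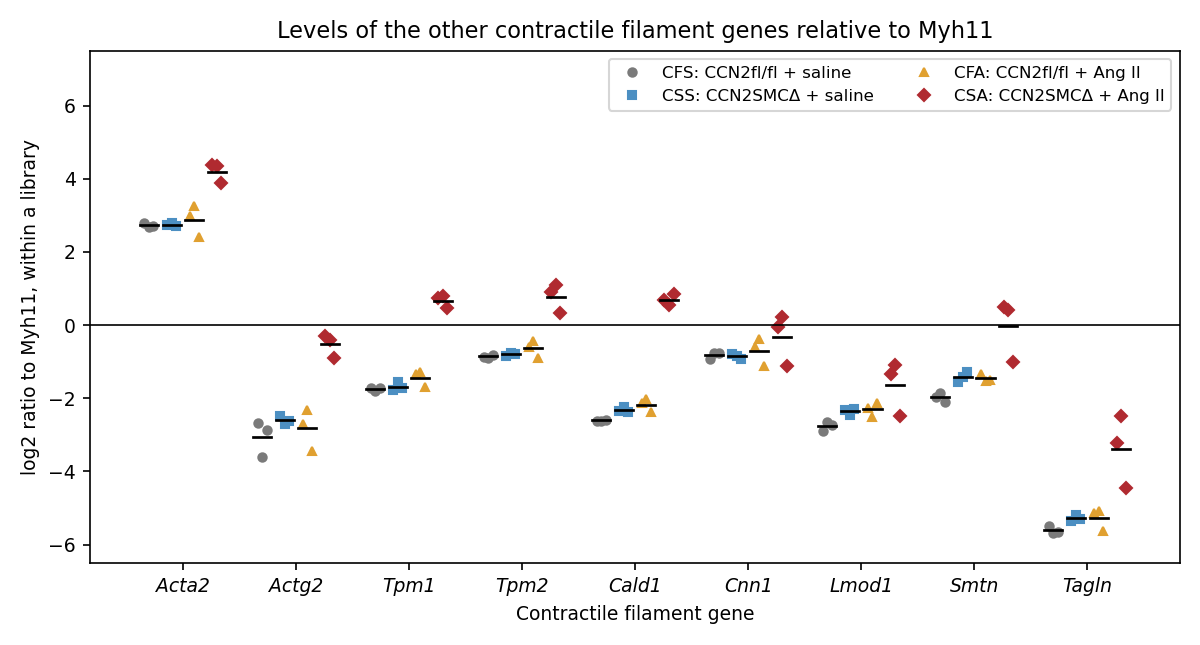
Log2 ratio of 9 filament genes to *Myh11* within each library, with 1 point per mouse and a bar at the group mean of 3 mice. CSA points lie highest for 7 genes, reaching 0.56 to 0.84 for *Cald1*, while *Cnn1* and *Lmod1* overlap CFA.

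Each of 5 filament gene families also has cytoplasmic or nonmuscle forms. Striated muscle actins were counted in the actin family, while striated muscle myosin heavy chains were left out of the myosin family. Of these, *Myh4* measured 25.9 FPKM in CFS68 and 40.0 in CSS55. The share of the smooth muscle genes in the summed FPKM of the family was lower in CSA than in CFA for all 5 families. For myosin heavy chains (*Myh11* against *Myh9*, *Myh10* and *Myh14*) it was 83.9%, 83.7% and 86.5% in CFA and 25.8%, 29.9% and 35.1% in CSA. For actins (*Acta2* and *Actg2* against *Actb*, *Actg1*, *Acta1* and *Actc1*) it was 80.6% ± 2.01 in CFA and 32.3% ± 3.56 in CSA (SD, n = 3). For tropomyosins (*Tpm1* and *Tpm2* against *Tpm3* and *Tpm4*) the mean was 79.5% in CFA and 23.8% in CSA, and for calponins (*Cnn1* against *Cnn2* and *Cnn3*) it was 69.1% and 17.0%. Transgelin shares, 9.83% and 2.65%, carry the counting limit of *Tagln*, and tropomyosin shares carry the limit on splice forms given above. Groups did not overlap in any family, and each test gave p = 0.1 (two-sided exact permutation test, 0.125 after adjustment over 20 tests), the smallest possible.

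The other members of these families moved in different ways. *Actb* measured 906 ± 148 FPKM in CFA and 1082 ± 154 in CSA (SD, n = 3), and its log2 difference of 0.26 did not pass adjustment (SE 0.17, limma adjusted p = 0.26). *Actg1*, *Myh9*, *Cnn2*, *Cnn3* and *Tagln2* did not pass either, with log2 differences of 0.39, 0.36, -0.40, -0.35 and -0.24. *Tpm3* rose from 34.2, 39.8 and 29.9 FPKM in CFA to 80.3, 77.7 and 120 in CSA, and *Tpm4* from 164, 201 and 104 to 270, 318 and 444. Both groups were separate, with log2 fold changes of 1.40 and 1.16 (limma adjusted p = 0.000354 and 0.00243), under the fold limit. *Myh10*, the nonmuscle myosin IIB heavy chain, went the other way, from 80.3, 67.1 and 61.0 in CFA to 15.1, 12.9 and 15.4 in CSA, a log2 fold change of -2.25 (SE 0.16, limma adjusted p = 2.31e-06). A wider list of 19 related genes also holds tropomodulins, other leiomodins and smoothelin-like genes, some of them muscle genes. Of the 13 tested, 3 were called lower, *Tmod1*, *Myh10* and *Smtnl2*, and 0 higher (limma, 4 lower and 2 higher at an adjusted p under 0.05). *Smtnl2*, at a log2 fold change of -1.54, lay near the fold limit. CSA03 was its lowest CSA aorta, at 0.462 FPKM against 0.878 and 0.840, so that call may rest on CSA03. Of all tested genes, 8.27% were called lower and 8.95% higher, and 21.2% were lower and 19.5% higher at an adjusted p under 0.05.

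In saline-infused mice the myosin share was lower in CSS than in CFS without overlap, 84.3% ± 0.795 against 88.2% ± 0.278 (SD, n = 3). The tropomyosin shares, 83.3% and 86.4%, and the transgelin shares, 9.92% and 13.0%, did not overlap either. In these 3 families the other genes summed to more in CSS, 173 against 137 FPKM on average for myosin, 164 against 136 for tropomyosin and 216 against 140 for transgelin. Mean *Tagln* was itself higher in CSS, at 23.8 against 21.0 FPKM, and overlapped, so its lower share was not a lower level. Each share gave the smallest p of the exact permutation test, 0.1 (0.125 adjusted). Actin shares of 80.0% and 81.2% overlapped (p = 0.7 from the exact permutation test), as did calponin shares of 68.6% and 72.2% (p = 0.2). *Acta1*, the skeletal muscle actin counted among the other actins, measured 75.6 FPKM in CFS68 and 115 in CSS55, against 0.644 to 2.15 in the other CFS, CSS and CFA aortas. The difference in actin share was -1.21 percentage points, and 0.317 without CSS55. In CCN2fl/fl mice, Ang II against saline gave lower shares without overlap in the same 3 families, 84.7% against 88.2% for myosin, 79.5% against 86.4% for tropomyosin and 9.83% against 13.0% for transgelin (p = 0.1 each from the exact permutation test). Both comparisons share the CFS aortas.

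**Figure D4:**
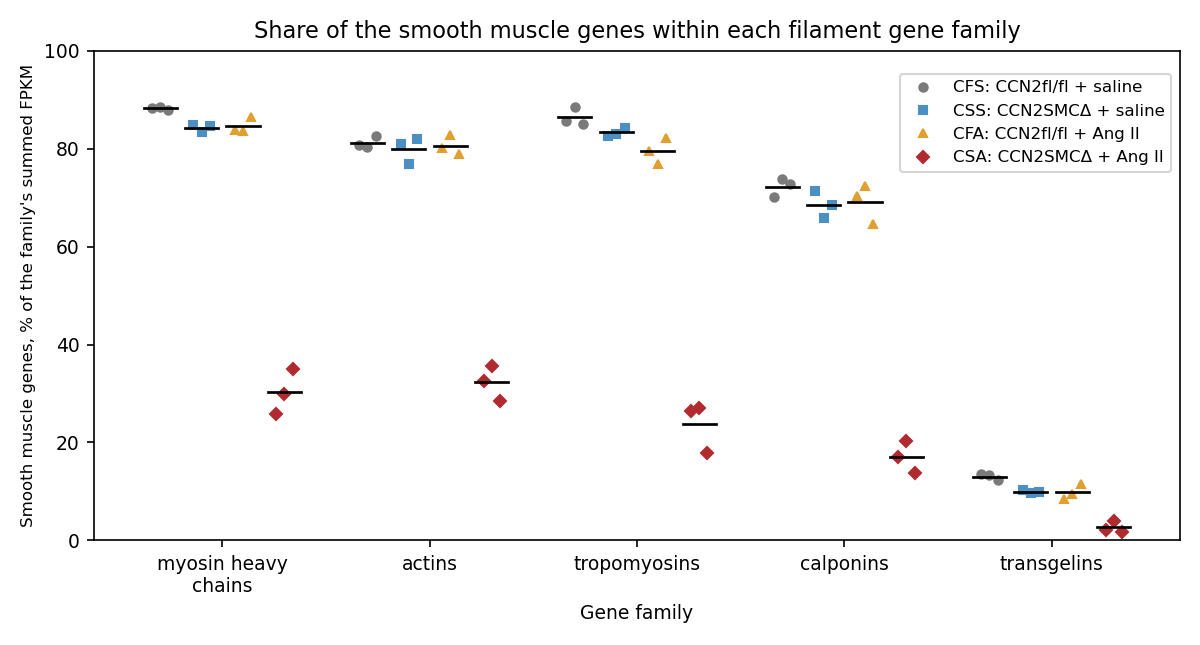
Percent of the summed FPKM of each gene family that came from its smooth muscle genes, with 1 point per mouse and a bar at the group mean of 3 mice. CSA points lie between 25.8% and 35.1% for myosin heavy chains, where the other 3 groups lie between 83.4% and 88.5%.

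The regulatory side of contraction was read from 18 genes of the myosin light chains and their switch, of which 8 were called lower in CSA against CFA and 0 higher (limma, 0 higher at an adjusted p under 0.05 and 13 lower). All tested genes gave 8.27% called lower, 8.95% called higher and 21.2% lower at an adjusted p under 0.05. The median of the 18 was -1.22 on the log2 scale. *Myl9*, the regulatory light chain of smooth muscle myosin, fell by 3.45 on the log2 scale, from 2258 ± 251 to 210.0 ± 49.2 FPKM (SD, n = 3). *Ppp1r14a*, the phosphatase inhibitor CPI-17, fell by 3.44 and *Ppp1r12b*, a targeting subunit of myosin phosphatase, by 3.07. *Mylk*, the light chain kinase, fell by 2.67 (limma adjusted p = 4.32e-07). *Rhoa* and *Myl12a* had log2 differences of 0.10 and 0.29 that did not pass. *Ppp1r12a*, *Myl6* and *Rock1* had -1.87, -1.83 and -1.54 and were called lower. CSA03 was the lowest CSA aorta for *Myl6*, at 62.9 FPKM against 179 and 208, so that call may rest on CSA03.

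Of 8 transcriptional regulators of contractile genes, 4 were called lower and 0 higher (limma, 5 lower and 0 higher at an adjusted p under 0.05), with a median of -1.39, where 8.27% of all tested genes were called lower and 21.2% were lower at an adjusted p under 0.05. *Myocd*, myocardin, fell from 20.3 ± 9.21 to 2.79 ± 0.814 FPKM (SD, n = 3), a log2 fold change of -2.76 (limma adjusted p = 6.77e-05). *Csrp1* and *Csrp2*, cysteine-rich LIM proteins, had -2.64 and -1.61, and *Srf* had -1.57. CSA03 was the lowest CSA aorta for *Csrp2*, at 81.5 FPKM against 98.8 and 121, and for *Srf*, at 6.20 against 22.0 and 19.9. *Csrp2* and *Srf* lay near the fold limit, so both calls may rest on CSA03. *Klf4*, which represses contractile genes in cultured SMCs, had -1.20 (limma adjusted p = 0.00105), under the fold limit. *Mrtfa*, *Mrtfb* and *Tead1* gave 0.23, -0.63 and -0.32 and did not pass.

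Mural cell genes outside the filament gave 9 of 12 called lower and 0 higher (limma, 11 lower and 0 higher at an adjusted p under 0.05), with a median of -2.66, against the same 8.27% and 21.2% of all tested genes. *Itga8*, the α8 integrin, had a log2 fold change of -3.90, *Heyl*, a Notch target, -3.51, and *Npnt*, a ligand of α8 integrin, -3.25. *Pdgfrb*, shared by SMCs, pericytes and fibroblasts, had -0.42 and did not pass (limma adjusted p = 0.252). In saline-infused mice 0 genes of these 3 lists were called, where 0.00681% of all tested genes were called lower and 0.00681% higher. The median log2 differences of the 3 lists were 0.05, -0.02 and -0.01. The summed FPKM of the mural genes was 2587 to 2949 in CSS and 1644 to 2279 in CFS, without overlap. *Rgs5* was the largest part of that sum, at 1597 FPKM on average in CSS and 854 in CFS.

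Markers of other cells moved in the same comparison. The summed FPKM of 12 macrophage markers was 391 to 839 in CFA and 3227 to 3399 in CSA, and 10 of the 12 were called higher, where 8.95% of all tested genes were. At an adjusted p under 0.05, 11 were higher and 1 was lower (limma), against 19.5% and 21.2% of all tested genes. Neutrophil markers summed to 14.1 to 35.4 and 566 to 630 FPKM, with 7 of 7 tested called higher, and T cell markers to 1.06 to 3.26 and 31.6 to 44.4, with 8 of 8. B cell markers summed to 14.8 to 20.9 and 44.9 to 63.1, with 3 of 4 tested called higher. Fibroblast markers summed to 3938 to 4377 in CFA and 6335 to 7488 in CSA, and 0 of 10 were called (limma, 4 higher and 2 lower at an adjusted p under 0.05). *Col1a1*, *Col1a2* and *Col3a1* made up most of that sum. Their means were 1439, 650 and 961 FPKM in CFA and 2823, 1120 and 1630 in CSA. *Dpt* and *Pi16* were the 2 lower genes, with log2 fold changes of -1.13 and -1.17. Endothelial markers summed to 275 to 530 and 175 to 209, with 4 of 10 called lower, where 8.27% of all tested genes were, and 1 higher. Adipocyte sums of 106 to 294 and 60.5 to 99.7 gave 4 of 8 lower, and erythrocyte sums of 767 to 2497 and 63.3 to 621 gave 5 of 5 tested lower. No macrophage or T cell marker was listed at 0 in a whole group, while the neutrophil marker *Ly6g* was at 0 in all CFS aortas. Of the skeletal muscle markers, *Tnnc2* was at 0 in all CSS, CFA and CSA aortas, and *Ckm* and *Myh4* in all CSA aortas. The part of these cells in the fall of the filament genes was not tested.

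Outside the 10 genes, those whose pattern was most like theirs were found by Pearson's correlation, over 12 libraries, with the mean of the 10 scaled log2 values. Each of the 10 genes, set against the mean of the other 9, had a correlation from 0.948 for *Cald1* to 0.998 for *Tpm2*. The most alike were *Ppp1r12b* (r = 0.997), *Csrp1* (0.996), *Myl9* (0.996), *P2rx1* (0.996) and *Chmp4c* (0.996), followed by *Ptprz1*, *Thsd4*, *Nacad*, *Fbxl22* and *Pard3b* (0.995 to 0.994). These values rest largely on the gap between CSA and the other 9 libraries. Over those 9 libraries, the filament genes against the mean of the other members gave r from 0.33 for *Lmod1*, 0.56 for *Actg2*, 0.57 for *Smtn* and 0.66 for *Myh11* to 0.94 for *Tagln*. The 10 outside genes most alike gave r from 0.68 for *Fbxl22* to 0.93 for *Csrp1*. *P2rx1*, an ATP-gated channel of SMCs, measured 77.7 ± 26.3 FPKM in CFA and 6.34 ± 1.02 in CSA (SD, n = 3), and *Thsd4*, which encodes an ADAMTS-like protein of microfibrils, 33.1 ± 1.38 and 1.56 ± 0.315.

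In every group 1 mouse was highest or lowest for most of the 10 genes. CFS69 was the highest CFS aorta for 9 of the 10, CSS55 the lowest CSS aorta for 9, and CFA74 the lowest CFA aorta for 7. In CSA, CSA02 was the highest aorta for 7 and CSA03 the lowest for 7. At the other end the genes divided in CFA and CSS. The highest CFA aorta was CFA71 for 4, CFA72 for 5 and CFA74 for 1, and the highest CSS aorta was CSS54 for 4 and CSS56 for 6. Whether other genes shared these orders was not tested. The median coefficient of variation among the 3 mice was 13.1% in CFS, 8.09% in CSS, 14.7% in CFA and 20.1% in CSA. *Tpm1* varied least in CSA, at 5.72%, and *Tagln* varied most. CFS69 also had the lowest endothelial marker sum of the saline mice, 134 FPKM against 395 to 527, and CSS55 held the skeletal muscle markers given above, and their part was not tested.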

How the data were processed

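RNA-Seq of 12 mouse abdominal aortas was analysed in 4 groups of 3, with groups and mouse numbers from the labels and 0 columns of the table left unused. The 10 genes and all gene lists were chosen with earlier results of these data known. The authors deposited FPKM, made per the labels with HISAT2 2.0.5, StringTie 1.3.3b and featureCounts 1.5.0-p3 on mm10 from poly(A) libraries, and no strand setting is given in the sources used here. The deposited FPKM carry a scaling between libraries, as median-of-ratios factors were 1 in all 12. With exon lengths of GENCODE M21, 98.0% to 98.5% of values under 100 fragments came out whole within 0.05 fragments.

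Log2(FPKM + 0.1) was tested with limma 3.58.1 in R 4.3.3 (lmFit, then eBayes with trend and robust settings). The fit took 12 libraries, a coefficient for each group and no covariate. The 14676 genes tested reached FPKM of 1 in 3 or more libraries, and Benjamini-Hochberg adjustment ran over all of them within a comparison. Shares were tested by two-sided exact permutation over mice. The text names the 10 genes, their family paralogs, the 3 genes of each contractile list with the largest change between CSA and CFA, *Ccn2* and the 10 genes most alike. *Mylk*, *Rhoa*, *Myl12a*, *Ppp1r12a*, *Myl6*, *Rock1*, *Srf*, *Klf4*, *Mrtfa*, *Mrtfb*, *Tead1*, *Pdgfrb* and *Rgs5* were added after their values were seen. So were the fibroblast markers named and the markers named for values of 0. Other genes of the lists enter at most through counts, medians and sums, and some results are not reported here. The fit was checked on simulated data. Alternatives were another pseudocount, filter, scaling, variance moderation, weighting, call rule or set of samples, and leaving out each mouse. Figures were drawn with matplotlib 3.10.9, pandas 2.3.3 and Python 3.11.15.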

Additional observations from a re-analysis of the deposited data

Results flagged for a closer look

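The genotype effect differed between Ang II and saline, by limma's interaction test with Benjamini-Hochberg adjustment, in all 10 filament genes, and in 9 of them by more than the fold limit of 1.5. On the log2 scale the difference between the effects in those 9 was -4.03 for *Myh11*, -3.78 for *Lmod1*, -3.62 for *Cnn1*, -3.16 for *Smtn*, -2.73 for *Acta2*, -2.67 for *Tpm2*, -2.47 for *Tagln*, -2.18 for *Actg2* and -1.98 for *Tpm1*. For *Cald1* it was -1.45 (adjusted p = 0.0015 from limma). *Tagln* had the weakest test of the 9 (adjusted p = 0.0027 from limma) and rests on the fewest fragments. No test of single outlying mice is reported.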

How the results depend on the processing

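The number of filament genes called lower in CSA against CFA ran from 7 (limma's treat) to 10 (array weights, or no fold limit), and was 9 whichever mouse was left out. In CSS against CFS and in CFA against CFS it stayed at 0 under every alternative run. It was 9 to 10 in CSA against CSS and 6 to 10 for the interaction, with 9 to 10 when mice were left out in turn. The log2 difference of *Myh11* in CFA against CFS ran from -0.58 to -0.41, under the fold limit. Its limma adjusted p ran from 0.0365 to 0.566, so it passed 0.05 in some alternatives only. Log2 fold changes in CSA against CFA, over all alternatives, lay between -4.29 and -4.09 for *Myh11*, -3.08 and -2.70 for *Acta2*, and -2.69 and -1.85 for *Tagln*. *Cald1* decided most changes of call. It passed the fold limit in CSA against CFA with array weights (-1.53), lost it in CSA against CSS with equal sums of FPKM (-1.4996) or without CSA01 or CSA02, and gained it in the interaction in 4 alternatives, up to -1.70. *Ccn2* passed the fold limit in CSA against CFA with array weights (-1.61), without CFA74 (-1.71) or without CSA03 (-1.56). Small differences changed sign in CFA against CFS. With mice left out in turn, *Actg2* ran from -0.51 to 0.0149, *Lmod1* from -0.15 to 0.12, *Smtn* from -0.12 to 0.18, *Cald1* from -0.13 to 0.0268 and *Ccn2* from -0.0482 to 0.56, and *Lmod1* gave 0.0396 with array weights. The difference in actin share was -1.21 percentage points in CSS against CFS and ran from -2.24 to 0.317 with mice left out, above 0 without CSS55, and in CFA against CFS it was -0.611 and ran from -1.71 to 0.249, above 0 without CFA74 or without CFS70 (0.0299). The cause was not tested. No paired analysis was possible because the groups share no replicate numbers. The limits are 3 mice a group, libraries of 14558580 to 23107807 fragments, and the thin, overlapped counting of *Tagln*.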
